A study of Homo sapiens with 2 samples.

Results

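Host genes of small RNAs are long non-coding transcripts whose introns or exons carry small nucleolar RNAs (snoRNAs) or microRNA (miRNA) hairpins. They were taken by name from the deposited counts: every SNHG symbol followed by a number, together with GAS5 and ZFAS1, formed 31 snoRNA hosts, and every symbol running from MIR to a final HG formed 77 miRNA hosts. These 108 genes were examined among 43424 gene symbols, with EPB41L4A-AS1 left out by the same rule. The cells were Hep3B, an established human hepatocellular carcinoma line, labelled WT in genotype, and the study asked whether an extract of the plant Glehnia littoralis (GLE) acts on them. The treatment label is the same for both libraries, and their titles tell them apart. One library came from cells treated with GLE and the other from control cells given the solvent DMSO, each made from 500 ng of RNA, with the GLE dose and time of the sequenced cells not given in the sources used here. With 1 library per group no test between conditions could be made, and the spread between cultures was not measured.

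SnoRNAs guide the chemical modification and processing of ribosomal RNA. Box C/D snoRNAs direct ribose methylation with fibrillarin, and box H/ACA snoRNAs direct pseudouridylation with dyskerin. Most human snoRNAs are cut out of introns after splicing, so making them depends on transcription of the host gene. Many spliced hosts begin with a 5′ terminal oligopyrimidine (TOP) tract, as ribosomal protein messages do, hold only short reading frames, and are known substrates of nonsense-mediated decay once they reach ribosomes. MiRNA hosts are processed by DROSHA and DICER1 instead, and the mature miRNA pairs with messages through its seed, bases 2 to 8.

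The first bases of the annotated transcripts were read to see how far the name TOP-like holds for these genes. A tract was called where a transcript began with C followed by at least 4 bases that were C or T, read on the transcript's own strand only. At least 1 GENCODE 29 transcript met this in 14 of the 24 measured snoRNA hosts with an entry (58.3%), in 2 of 9 miRNA hosts (22.2%), in 65 of 76 cytosolic ribosomal protein genes (85.5%) and in 35 of 243 measured long non-coding RNA genes of any kind (14.4%). Over all measured genes with an entry, 1912 of 10680 met it (17.9%), a share near that of the miRNA hosts. The long non-coding RNA genes counted here include the measured hosts themselves. Genes with many annotated transcripts have more chances to meet it. Counted by transcript, the shares were 14.0% of 272 for snoRNA hosts, 3.19% of 94 for miRNA hosts, 21.1% of 782 for ribosomal protein genes and 3.65% of 1837 for long non-coding RNA genes. For all measured genes the share was 2.62% of 103197 transcripts. The label therefore holds by annotation for part of the snoRNA hosts, and SNHG7, SNHG17 and SNHG32 are among the 10 without the tract.

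Below are the first 30 bases of some hosts named in the results, in GENCODE 29 transcripts on GRCh38, with the tract in capitals. At the end are 3 hosts without a tract. For a host with a tract, the start shown was picked among its transcripts that have one. These were 6 of 29 transcripts for GAS5, 3 of 23 for SNHG5 and 1 of 5 for SNHG8. Other hosts with a tract, among them SNHG1, SNHG4 and SNHG11, are not printed. In the starts shown, GAS5 and SNHG16 share their first 11 bases, and SNHG19 shares the first 7 with both.
ZFAS1: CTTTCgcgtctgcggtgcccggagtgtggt
SNHG12: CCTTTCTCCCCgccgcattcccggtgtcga
SNHG5: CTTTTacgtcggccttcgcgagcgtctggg
SNHG29: CTTTTCattcccgttgttatggagggccac
SNHG8: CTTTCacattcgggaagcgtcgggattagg
GAS5: CTTTTCgaggtaggagtcgactcctgtgag
SNHG16: CTTTTCgaggtcggccgcgtggctggaaga
SNHG19: CTTTTCggggtcgagtccgagggggaagag
SNHG25: CTTTCagcgcctgcaggttccgggaggtca
SNHG3: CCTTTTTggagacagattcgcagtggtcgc
SNHG7: ctctgcgtgcgccggaggctgccgtggcgg
SNHG17: gcctcagtccttcgccgtccctcgccgtcc
SNHG32: ttttagttctttttgcgaagtgggctcgtg

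For the miRNA hosts whose counts differed most, and for MIR22HG, 1 arm of each miRNA, the one better known as the active strand, is given from RefSeq (GRCh38.p14) with the seed in capitals. The other arms, and miR-3142 of MIR3142HG, are not printed. In the MIR17HG cluster, miR-17-5p and miR-20a-5p share the seed AAAGUGC, and miR-19a-3p and miR-19b-3p share GUGCAAA. The miRNAs of MIR222HG, miR-221-3p and miR-222-3p, share GCUACAU.
hsa-miR-17-5p: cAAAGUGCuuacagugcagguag
hsa-miR-20a-5p: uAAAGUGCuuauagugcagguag
hsa-miR-18a-5p: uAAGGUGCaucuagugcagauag
hsa-miR-19a-3p: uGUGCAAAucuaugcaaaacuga
hsa-miR-19b-3p: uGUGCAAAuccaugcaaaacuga
hsa-miR-92a-3p: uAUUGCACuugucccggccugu
hsa-miR-221-3p: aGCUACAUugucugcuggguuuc
hsa-miR-222-3p: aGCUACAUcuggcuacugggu
hsa-miR-193b-3p: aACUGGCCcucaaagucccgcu
hsa-miR-365a-3p: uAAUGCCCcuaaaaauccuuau
hsa-miR-146a-5p: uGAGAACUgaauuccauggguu
hsa-miR-22-3p: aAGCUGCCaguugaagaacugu

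The GLE library held 3636351 counts and the DMSO library 5618328, so the GLE library was the shallower. A count of 0 allows up to 3 counts, which is 0.848 CPM (a counts-per-million level on library sizes corrected by TMM) in the GLE library and 0.519 CPM in the DMSO library. All 8 hepatocyte markers were counted in both libraries, at 5043 CPM summed in the GLE library and 8039 CPM in the DMSO library. The 4 fibroblast markers summed to 18.1 CPM in GLE and 2.77 CPM in DMSO, and the 4 endothelial markers to 0.283 CPM in GLE and 6.23 CPM in DMSO, where all of it was PECAM1 and VWF, CDH5 and KDR were at 0 in both. Of the 4 leukocyte markers, at 439 CPM in GLE and 476 CPM in DMSO, LYZ gave nearly all the counts and CD3E was at 0 in both. The part of these markers in the host gene ratios was not tested. Counts come from the 3′ ends of transcripts and are not divided by length, so levels are not compared between genes.

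Of the 31 snoRNA hosts, 25 had at least 30 counts over both libraries and are called measured here, 3 had from 1 to 26 counts, and SNHG18, SNHG27 and SNHG28 had none. Only 9 of the 77 miRNA hosts were measured, 23 had from 1 to 29 counts, and 45 had none in either library. MIR122HG, which carries the liver's most abundant miRNA, was among those at 0 in both. A filter on the sum lets a low gene pass through the library where it is high, so counts over measured members are descriptions. SnoRNA hosts took 0.370% of GLE counts (exact Clopper-Pearson 95% interval 0.364 to 0.376) and 0.282% of DMSO counts (0.278 to 0.287). MiRNA hosts took 0.0171% (0.0157 to 0.0184) of GLE counts and 0.0172% (0.0161 to 0.0183) of DMSO counts. Intervals and floors cover counting error only, and the labels name no molecular identifiers, so reads need not stand for separate molecules.

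The 34 measured hosts held a higher set of snoRNA hosts led by SNHG7, SNHG12 and ZFAS1, and a lower set of miRNA hosts led by MIR3142HG, MIR193BHG, MIR222HG and MIR17HG. At least 2-fold higher in GLE were 4 hosts, against a background of 9.51% of all 11068 measured genes, and at least 2-fold lower were 5 hosts, against 10.1% of all measured genes. For 34 genes these counts lie near the background. Among the 20 that overlap no other RefSeq gene apart from their small RNAs, 1 was at least 2-fold higher (ZFAS1) and 5 were at least 2-fold lower. The whole counting interval lay above 1 for 14 hosts, where the background is 27.7% of measured genes, and below 1 for 10 hosts, where it is 30.1%. Among the 20 hosts without an overlap, it lay above 1 for 7 and below 1 for 7. The median log2 ratio (GLE over DMSO) was 0.22 for the 25 snoRNA hosts and -0.82 for the 9 miRNA hosts, beside -0.04 for all measured genes and -0.15 for the 444 other measured long non-coding RNA genes.

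**Figure D1:**
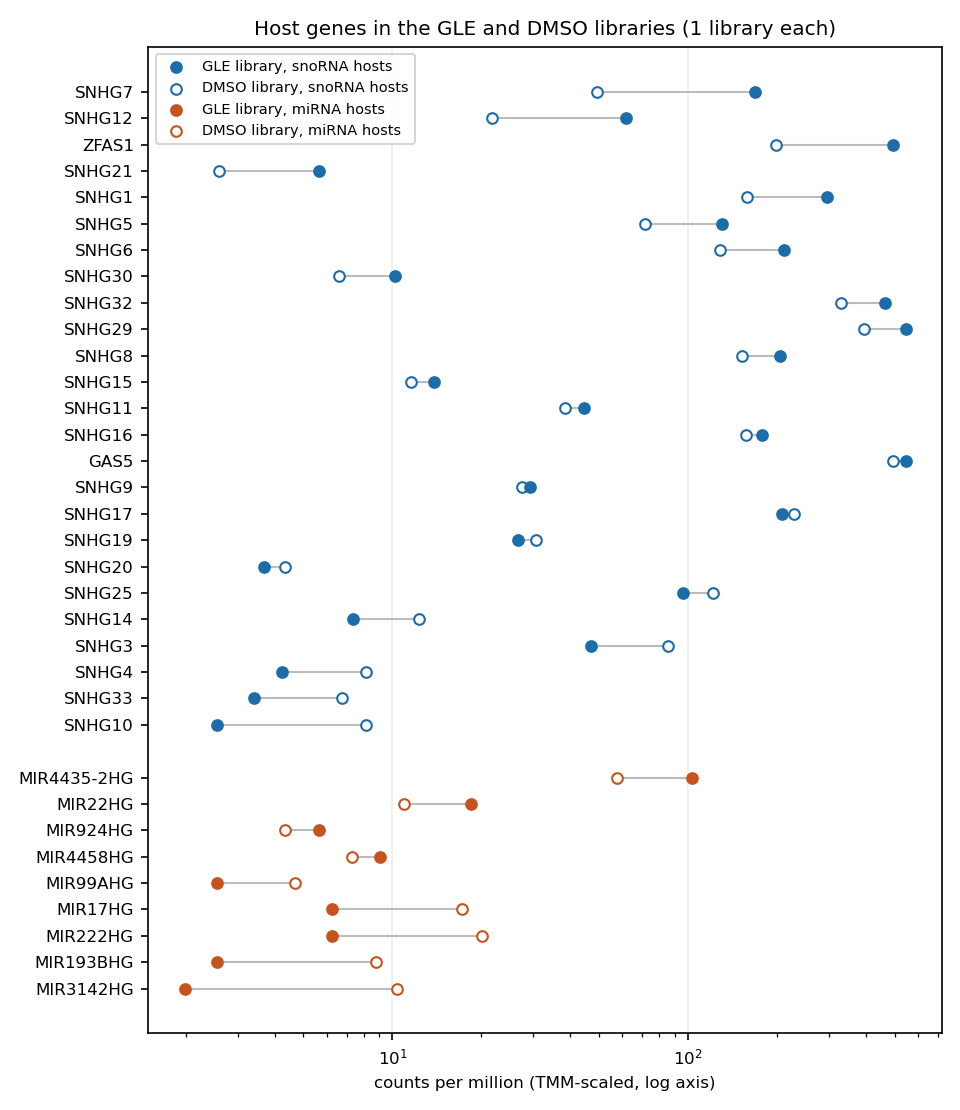
Level of each measured host gene in TMM-scaled CPM (log axis) in the GLE library (filled) and the DMSO library (open), with snoRNA hosts in blue and miRNA hosts in orange, 1 library per group and so no error bars. SNHG7 lies at 169 in GLE and 49.3 in DMSO at the top, and MIR3142HG at 1.98 in GLE and 10.4 in DMSO at the bottom.

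Among well-counted snoRNA hosts, 11 of the 17 with at least 200 counts had the whole interval above 1 and 2 had it below, and scaled by total counts 9 and 3 did. Among all genes with at least 200 counts, 31.6% had the interval above 1 and 33.8% below. Among the 56 other long non-coding RNA genes of that depth, 23.2% had it above 1 and 44.6% below. The median log2 ratio was 0.43 for these 17 hosts, -0.02 for all genes and -0.20 for the other long non-coding RNA genes of that depth. The 8 snoRNA hosts under 200 counts lay the other way, with a median of -0.47, 1 interval above 1 and 4 below. Among all genes with from 30 to under 200 counts the median was -0.07, with 22.8% of intervals above 1 and 25.4% below. Among the other long non-coding RNA genes of that depth the median was -0.13, with 24.2% above and 28.4% below. Summed over the 25 measured snoRNA hosts, there were 13430 counts in GLE and 15842 in DMSO, a ratio of 1.39 after scaling (95% counting interval 1.35 to 1.42). GAS5, SNHG29 and SNHG32 made up 40.9% of that sum in GLE and 44.3% in DMSO.

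SNHG7, which carries the H/ACA snoRNAs SNORA17A and SNORA17B on chromosome 9 (136724594 to 136728184, minus strand, GRCh38 as for all positions here), had 597 counts (169 CPM) in GLE and 285 counts (49.3 CPM) in DMSO. Its ratio of 3.42 (95% counting interval 2.97 to 3.96) was the highest of any measured host. SNHG12, on chromosome 1 (28578538 to 28582983, minus strand), carries SNORD99 and the H/ACA snoRNAs SNORA16A, SNORA44 and SNORA61. It had 218 counts (61.7 CPM) in GLE and 125 counts (21.6 CPM) in DMSO, a ratio of 2.85 (2.28 to 3.58). Both of these genes overlap a coding gene on the opposite strand, DIPK1B for SNHG7 and TRNAU1AP for SNHG12. DIPK1B had 22 counts in GLE and 95 in DMSO, a ratio of 0.378 (0.227 to 0.607). TRNAU1AP, which encodes a selenocysteine tRNA binding protein, had 54 counts in GLE and 72 in DMSO, a ratio of 1.23 (0.845 to 1.77). The strand setting of the counting is not given, so reads from such partners cannot be told apart, and their part in the host ratios was not tested.

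ZFAS1, the host of the C/D snoRNAs SNORD12, SNORD12B and SNORD12C on chromosome 20 (49278178 to 49289260, plus strand), had 1744 counts (493 CPM) in GLE and 1143 counts (198 CPM) in DMSO. Its ratio was 2.49 (2.31 to 2.69), and in RefSeq it overlaps no other gene apart from its snoRNAs. SNHG21, which carries the Cajal body RNA SCARNA15, had 20 counts in GLE and 15 in DMSO, and its ratio of 2.18 has a wide interval (1.06 to 4.57). Of these 4 hosts at least 2-fold higher, SNHG7, SNHG12 and ZFAS1 had the whole interval above 2.

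SNHG1, which carries C/D snoRNAs between SNORD22 and SNORD31 on chromosome 11 (62851978 to 62855885, minus strand), had 1042 counts (295 CPM) in GLE and 917 (159 CPM) in DMSO, a ratio of 1.86 (1.70 to 2.03). SNHG5, the host of SNORD50A and SNORD50B on chromosome 6 (85677007 to 85678733, minus strand), had 460 counts (130 CPM) in GLE and 412 (71.3 CPM) in DMSO, a ratio of 1.82 (1.59 to 2.09). SNHG6, the host of SNORD87, had 744 counts in GLE and 741 in DMSO, a ratio of 1.64 (1.48 to 1.82). These 3 hosts were higher in GLE beyond counting error but under 2-fold.

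SNHG32, which carries SNORD48 and SNORD52 and was formerly annotated as C6orf48, had 1635 counts in GLE and 1897 in DMSO, a ratio of 1.41 (1.32 to 1.51). SNHG29, the host of SNORD49A, SNORD49B and SNORD65, had 1929 counts in GLE and 2277 in DMSO, a ratio of 1.38 (1.30 to 1.47). SNHG8, the host of SNORA24, had 726 counts in GLE and 879 in DMSO, a ratio of 1.35 (1.22 to 1.49). Differences of this size passed counting error at the depth of these genes, and with 1 culture a side nothing shows how far such genes vary between cultures.

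GAS5, known as growth arrest-specific transcript 5, is the host with most counts and is known for a stem that binds the glucocorticoid receptor. On chromosome 1 (173863901 to 173869045, minus strand) it holds 10 C/D snoRNAs and 1 H/ACA snoRNA in RefSeq. It had 1930 counts (546 CPM) in GLE and 2847 counts (493 CPM) in DMSO, a ratio of 1.11 (1.05 to 1.17). Its opposite-strand partner ZBTB37 had 37 counts in GLE and 80 in DMSO, a ratio of 0.756 (0.497 to 1.13). SNHG16, the host of SNORD1A, SNORD1B and SNORD1C, had 629 counts in GLE and 906 in DMSO, a ratio of 1.13 (1.02 to 1.26). Scaled by total counts, the intervals of GAS5 (0.988 to 1.11) and SNHG16 (0.967 to 1.19) held 1. GAS5 and SNHG16 thus lay close to 1. SNHG19, the host of SNORD60, had 94 counts in GLE and 177 in DMSO, a ratio of 0.868 with an interval (0.668 to 1.12) that held 1.

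For 7 snoRNA hosts in all the interval held 1. SNHG17, which carries 4 H/ACA snoRNAs of the SNORA71 family, had 735 counts in GLE and 1315 in DMSO, a ratio of 0.913 (0.833 to 1.00). Its interval ended at the edge of 1 and lay wholly below 1 with upper-quartile factors (0.819 to 0.983) and with scaling by total counts (0.788 to 0.946). Its neighbour on chromosome 20, SNHG11, with SNORA60 and SNORA71E, had 157 counts in GLE and 221 in DMSO, a ratio of 1.16 (0.940 to 1.43). SNHG9, the host of SNORA78, had 103 counts in GLE and 159 in DMSO, a ratio of 1.06 (0.818 to 1.36). The others were SNHG19, SNHG15, SNHG20 and SNHG30, with ratios of 0.868, 1.20, 0.850 and 1.55, in that order.

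At the low end, 6 snoRNA hosts had the whole interval below 1. SNHG3, on chromosome 1 (28505943 to 28510892, plus strand), carries SNORA73A and SNORA73B, H/ACA-type snoRNAs known for a part in processing 18S ribosomal RNA. It had 166 counts (46.9 CPM) in GLE and 493 counts (85.3 CPM) in DMSO, and was 1.82-fold lower (1.52 to 2.18). The gene lies within the annotated span of RCC1, which had 156 counts in GLE and 251 in DMSO, a ratio of 1.02 (0.826 to 1.25). SNHG25, the host of SNORD104, had 341 counts in GLE and 699 in DMSO, and was 1.25-fold lower (1.10 to 1.43). SNHG3 and SNHG25 were thus the well-counted hosts with the whole interval below 1, both with a 5′ tract by annotation. SNHG17, which has no tract, joined them under total counts and upper-quartile factors.

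The other 4 hosts of the low end had fewer counts. SNHG10, the host of SCARNA13, had 9 counts in GLE and 47 in DMSO, and was 3.20-fold lower (1.55 to 7.42), the only snoRNA host at least 2-fold lower, joined by SNHG33 when scaled by total counts. SNHG33, with 2 H/ACA snoRNAs, had 12 counts in GLE and 39 in DMSO, and was 1.99-fold lower (1.02 to 4.17). SNHG4, also with 2 H/ACA snoRNAs, had 15 counts in GLE and 47 in DMSO, and was 1.92-fold lower (1.05 to 3.69). Such low counts leave a wide range of folds. SNHG14, the imprinted transcript of the Prader-Willi region that carries the SNORD115 and SNORD116 clusters, had 26 counts in GLE and 71 in DMSO, and was 1.67-fold lower (1.05 to 2.73). It spans 14 other RefSeq genes. Among these, PWAR6 had 201 counts in GLE and 687 in DMSO and was 2.09-fold lower (1.78 to 2.46), and UBE3A had 604 counts in GLE and 895 in DMSO, a ratio of 1.10 (0.993 to 1.22).

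**Figure D2:**
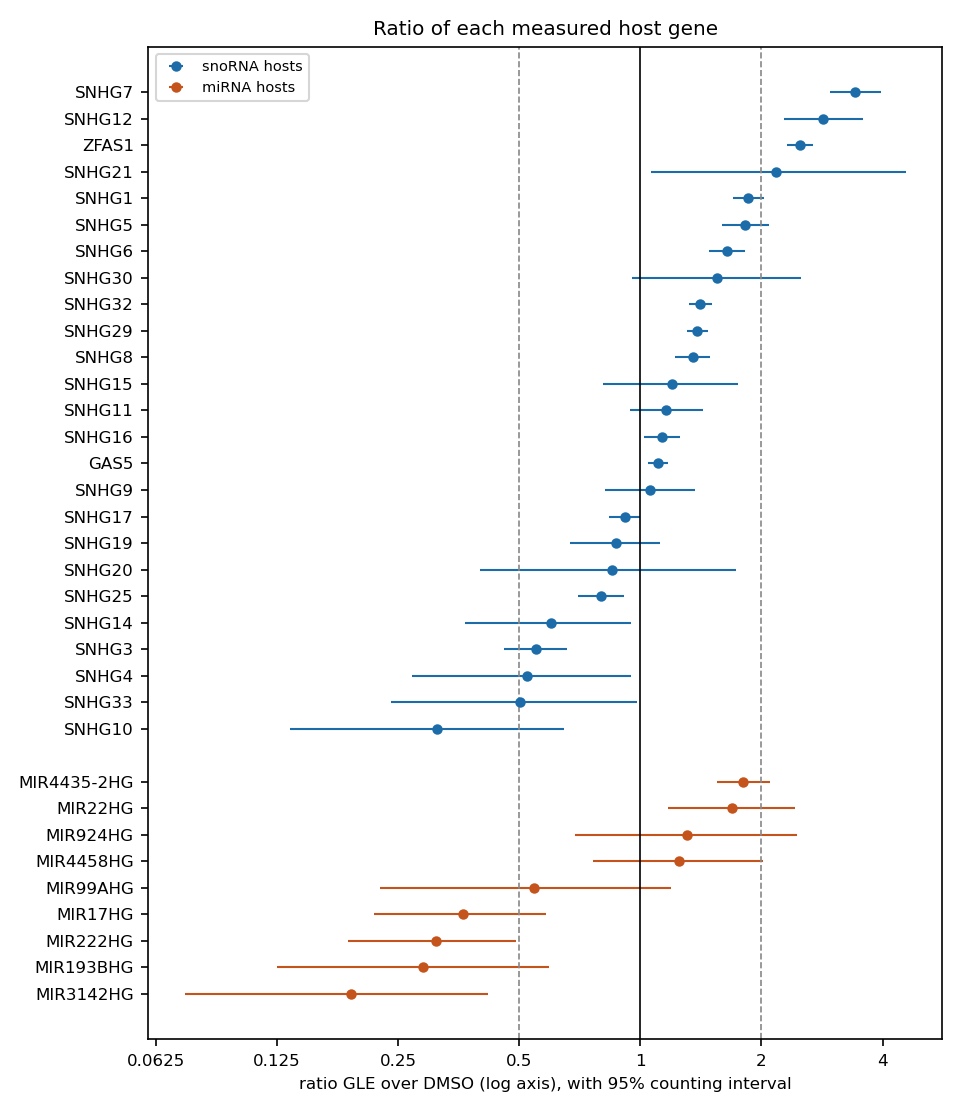
Ratio GLE over DMSO of each measured host gene (log axis) with its exact 95% counting interval as a bar, snoRNA hosts in blue and miRNA hosts in orange, the solid line at 1 and dashed lines at 0.5 and 2. SNHG7, SNHG12 and ZFAS1 lie wholly above 2, and MIR222HG and MIR3142HG lie wholly below 0.5.

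SnoRNA hosts were also grouped by the kind of small RNA they carry, which is a description of counts and medians with no test. Of 11 measured hosts with C/D snoRNAs only, 7 had the interval above 1 and 2 below, with a median log2 ratio of 0.49. Of 9 with H/ACA snoRNAs only, 2 had it above 1 and 3 below, with a median of 0.08. The H/ACA group holds SNHG7 and also the low-count hosts SNHG4, SNHG15 and SNHG33. Beside these counts, and those by 5′ tract below, 27.7% of all measured genes had the interval above 1 and 30.1% below. SNHG12 and GAS5, which carry both kinds, had the interval above 1, for GAS5 not under total counts. The 14 hosts with an annotated 5′ tract had 9 intervals above 1 and 3 below, with a median of 0.32. The 10 without had 3 above and 2 below, with a median of 0.17. These groups differ in depth, and intervals clear of 1 are fewer among genes of low depth. Without the tract, SNHG10, SNHG14, SNHG15, SNHG20, SNHG21 and SNHG30 had under 200 counts, and with it only SNHG4 did. Whether depth or the tract bears on this contrast was not tested. Both SNHG7, the highest host, and SNHG10, the lowest, were without the tract.

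MiRNA hosts with the largest differences were lower in GLE, and 4 of the 9 measured were at least 2-fold lower and 0 at least 2-fold higher. All but MIR4435-2HG had from 30 to under 200 counts, a depth at which 16.3% of all genes and 25.5% of the other long non-coding RNA genes were at least 2-fold lower. MIR3142HG, on chromosome 5 (160468251 to 160487426, plus strand), carries MIR146A, a miRNA known to be induced by NF-kB and to restrain TRAF6 and IRAK1. It had 7 counts (1.98 CPM) in GLE and 60 counts (10.4 CPM) in DMSO, and was 5.25-fold lower (2.40 to 13.6). MIR193BHG, which carries MIR193B and MIR365A on chromosome 16 (14301381 to 14331062, plus strand), had 9 counts (2.55 CPM) in GLE and 51 counts (8.83 CPM) in DMSO, and was 3.47-fold lower (1.69 to 8.01). These values rest on few reads in the GLE library, and their intervals are wide.

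MIR222HG, on the X chromosome (45745214 to 45770267, minus strand), carries miR-221 and miR-222, which share a seed and are known to target the CDK inhibitor CDKN1B. It had 22 counts (6.22 CPM) in GLE and 116 counts (20.1 CPM) in DMSO, and was 3.23-fold lower (2.03 to 5.35). MIR17HG, the host of the oncogenic miR-17-92 cluster that MYC is known to activate, lies on chromosome 13 (91347687 to 91354577, plus strand). It had 22 counts (6.22 CPM) in GLE and 99 counts (17.1 CPM) in DMSO, and was 2.75-fold lower (1.72 to 4.59). None of these 4 hosts overlaps another RefSeq gene apart from its own miRNAs. For MIR222HG and MIR3142HG the whole interval lay beyond 2-fold.

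MIR22HG, the host of the tumour-suppressive miR-22 on chromosome 17 (1711504 to 1716210, minus strand), lay the other way with 65 counts in GLE and 63 in DMSO, a ratio of 1.69 (1.17 to 2.42). MIR4435-2HG, on chromosome 2 (111195866 to 111495161, minus strand), had 366 counts in GLE and 332 in DMSO, a ratio of 1.80 (1.55 to 2.10). It is a near-identical copy of CYTOR, so the split of reads between these genes is uncertain. CYTOR, named after its values were seen, had 242 counts in GLE and 209 in DMSO, a ratio of 1.89 (1.57 to 2.29). With that split uncertain, the like ratios of the copies are not separate observations.

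For the other 3 measured miRNA hosts the interval held 1. MIR924HG had 20 counts in GLE and 25 in DMSO, a ratio of 1.31 (0.689 to 2.45). MIR4458HG had 32 counts in GLE and 42 in DMSO, a ratio of 1.25 (0.761 to 2.02). MIR99AHG, the host of miR-99a, let-7c and miR-125b-2, had 9 counts in GLE and 27 in DMSO, a ratio of 0.545 (0.225 to 1.19). Summed over all 9, there were 552 counts in GLE and 815 in DMSO, a ratio of 1.11 (0.992 to 1.23), while the median log2 ratio of -0.82 lay below 0. That sum is held by MIR4435-2HG, and without it the ratio was 0.629.

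Below 30 counts, 23 miRNA hosts held 68 counts in GLE and 150 in DMSO in all, at most 13 in GLE and 22 in DMSO for any of them. Their intervals lay above 1 for 2 and below 1 for 3. The shares over all genes of that depth are not given here, so these counts are descriptions only. MIR1915HG had 0 counts in GLE and 12 in DMSO, and the interval of its ratio reached up to 0.588. MIR4500HG had 6 counts in GLE and 0 in DMSO, and the interval of its ratio reached down to 1.92. Among the 3 low snoRNA hosts, SNHG26 had 16 counts in GLE and 10 in DMSO, SNHG31 had 0 in GLE and 8 in DMSO, and SNHG22 had 1 in GLE and 0 in DMSO.

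**Figure D3:**
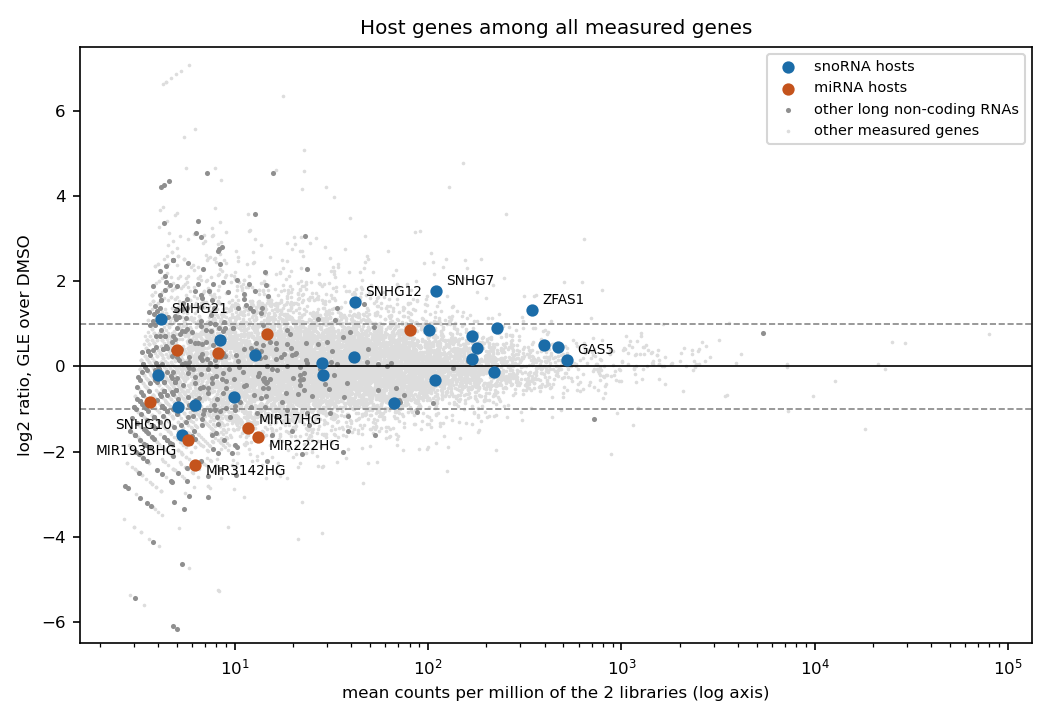
Log2 ratio GLE over DMSO against mean CPM (log axis) for the 11068 measured genes, with snoRNA hosts in blue, miRNA hosts in orange, other long non-coding RNAs in dark grey and other genes in light grey, dashed lines marking 2-fold. SNHG7, SNHG12, ZFAS1 and SNHG21 lie above the upper line, and SNHG10 and 4 miRNA hosts lie below the lower line, toward the low-count side of the plot.

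The small RNAs inside the hosts were hardly counted in these libraries, whose kit primes on poly(A). Measured hosts hold 120 C/D snoRNAs, 21 H/ACA snoRNAs, 21 miRNAs and 3 Cajal body RNAs in RefSeq. Of these, 116 C/D snoRNAs, 19 H/ACA snoRNAs and 18 miRNAs lie within an intron of at least 1 GENCODE 29 transcript. Only 4 small RNAs, all of the C/D kind, reached 30 counts. SNORD50A, in SNHG5, had 172 counts in GLE and 172 in DMSO, a ratio of 1.63 (1.32 to 2.03), and SNORD104, in SNHG25, had 93 counts in GLE and 113 in DMSO, a ratio of 1.34 (1.01 to 1.79). SNORD47, in GAS5, had 29 counts in GLE and 7 in DMSO, a ratio of 6.77 (2.90 to 18.3), and SNORD26, in SNHG1, had 25 counts in GLE and 17 in DMSO, a ratio of 2.40 (1.25 to 4.74). The 21 miRNA genes had 3 counts in GLE and 11 in DMSO, all in MIR6516 of SNHG20. Levels of the mature snoRNAs and miRNAs were not measured by the host counts, and spliced and unspliced host reads were not separated.

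Coding genes that also host snoRNAs, many of them ribosomal protein genes with a TOP tract, stood beside the non-coding hosts. Of 40 measured, 23 had the interval above 1 and 8 below, with a median log2 ratio of 0.14, and 1 was at least 2-fold in each direction. Over all measured genes, 27.7% had the interval above 1 and 30.1% below, with 9.51% at least 2-fold higher and 10.1% lower. Most of these coding hosts had at least 200 counts. Among all genes of that depth, 31.6% had the interval above 1 and 33.8% below, with 5.71% at least 2-fold higher and 5.30% lower. RPL23A, a large-subunit ribosomal protein gene, had 7756 counts in GLE and 6297 in DMSO, a ratio of 2.01 (1.95 to 2.08), which was under 2-fold with upper-quartile factors (1.98) and total counts (1.90). EIF4A2, a translation initiation helicase, had 1417 counts in GLE and 1240 in DMSO, a ratio of 1.87 (1.73 to 2.02). PPAN, a ribosome biogenesis gene named after its values were seen, had 42 counts in GLE and 160 in DMSO and was 2.33-fold lower (1.65 to 3.36). EPB41L4A-AS1, a snoRNA host outside the naming rule, had 242 counts in GLE and 142 in DMSO, a ratio of 2.78 (2.25 to 3.45), while DANCR had 467 in GLE and 779 in DMSO, a ratio of 0.980 (0.872 to 1.10).

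Among genes for the core proteins that bind snoRNAs, 3 of 8 had the interval above 1 and 5 below. Their median log2 ratio was -0.27, with 0 beyond 2-fold either way. Over all measured genes, 27.7% had the interval above 1 and 30.1% below. All 8 had at least 200 counts, a depth at which the shares over all genes were 31.6% and 33.8%. NOP56, the C/D core protein whose own gene hosts snoRNAs, had 812 counts in GLE and 2599 in DMSO and was 1.96-fold lower (1.81 to 2.12), or 2.07-fold lower when scaled by total counts. DKC1, the dyskerin of H/ACA particles, had 883 counts in GLE and 1854 in DMSO and was 1.28-fold lower (1.19 to 1.39). NHP2 was 1.42-fold lower (1.18 to 1.71) and NOP10 had a ratio of 1.57 (1.34 to 1.84), both H/ACA proteins. Of 12 assembly factors, 4 had the interval above 1 and 3 below, among them NUFIP1, which brings C/D particles together, at a ratio of 2.01 (1.56 to 2.61), which was 1.98 with upper-quartile factors and 1.90 with total counts.

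Factors of nonsense-mediated decay, the pathway that degrades many spliced hosts, had 14 of 22 intervals above 1 and 3 below, a median log2 ratio of 0.34, and 2 genes at least 2-fold higher. All measured genes gave 27.7% above 1 and 30.1% below, with 9.51% at least 2-fold higher. All genes with at least 200 counts, the depth of most of these factors, gave 31.6%, 33.8% and 5.71%, in that order. The 2-fold calls ended under other scalings, with 0 left under total counts and 1 (EIF4A3) under upper-quartile factors. EIF4A3, the anchor of the exon junction complex, had 851 counts in GLE and 667 in DMSO, a ratio of 2.08 (1.88 to 2.31). SMG8, a subunit of the kinase complex that acts on UPF1, had 268 counts in GLE and 215 in DMSO, a ratio of 2.04 (1.70 to 2.45). UPF2 and the exonuclease XRN1 had ratios of 1.74 (1.49 to 2.04) and 1.88 (1.47 to 2.40). Both the decay factors and the snoRNA hosts had medians above that of all genes, and a link between them was not tested.

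MiRNA processing genes had 3 of 17 intervals above 1 and 7 below, with a median log2 ratio of -0.20. The shares over all measured genes were 27.7% above 1 and 30.1% below. Over all genes with at least 200 counts, the depth of most of these genes, they were 31.6% and 33.8%. TNRC6C, a silencing scaffold that binds Argonaute, had 228 counts in GLE and 134 in DMSO, a ratio of 2.78 (2.24 to 3.47). LIN28B, which blocks let-7 maturation, had 161 counts in GLE and 444 in DMSO and was 1.69-fold lower (1.41 to 2.03), and DDX17, a helicase of the DROSHA complex, had 2130 in GLE and 5808 in DMSO and was 1.67-fold lower (1.59 to 1.75). Regulators of TOP messages and mTORC1, the kinase complex that drives their translation, had 8 of 20 intervals above 1 and 5 below, with a median of 0.02. At or past 2-fold were 4 genes on the higher side and 1 on the lower, beside 9.51% and 10.1% of all measured genes. The 4 included inhibitors and the activator of mTORC1. SESN2, a stress-induced sestrin that restrains mTORC1, had the list's highest ratio, 4.23 (3.83 to 4.68). RHEB, the GTPase that activates mTORC1, had 98 counts in GLE and 76 in DMSO, a ratio of 2.11 (1.55 to 2.88), and fell short of 2-fold under total counts (1.99). AKT1S1, an inhibitory mTORC1 subunit named after its values were seen, had a ratio of 2.45 (1.51 to 4.03). DDIT4, a stress-induced inhibitor of mTORC1, had 408 counts in GLE and 239 in DMSO, a ratio of 2.79 (2.37 to 3.29), and RPTOR, the scaffold subunit of mTORC1, had 39 in GLE and 144 in DMSO and was 2.26-fold lower (1.58 to 3.31).

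**Figure D4:**
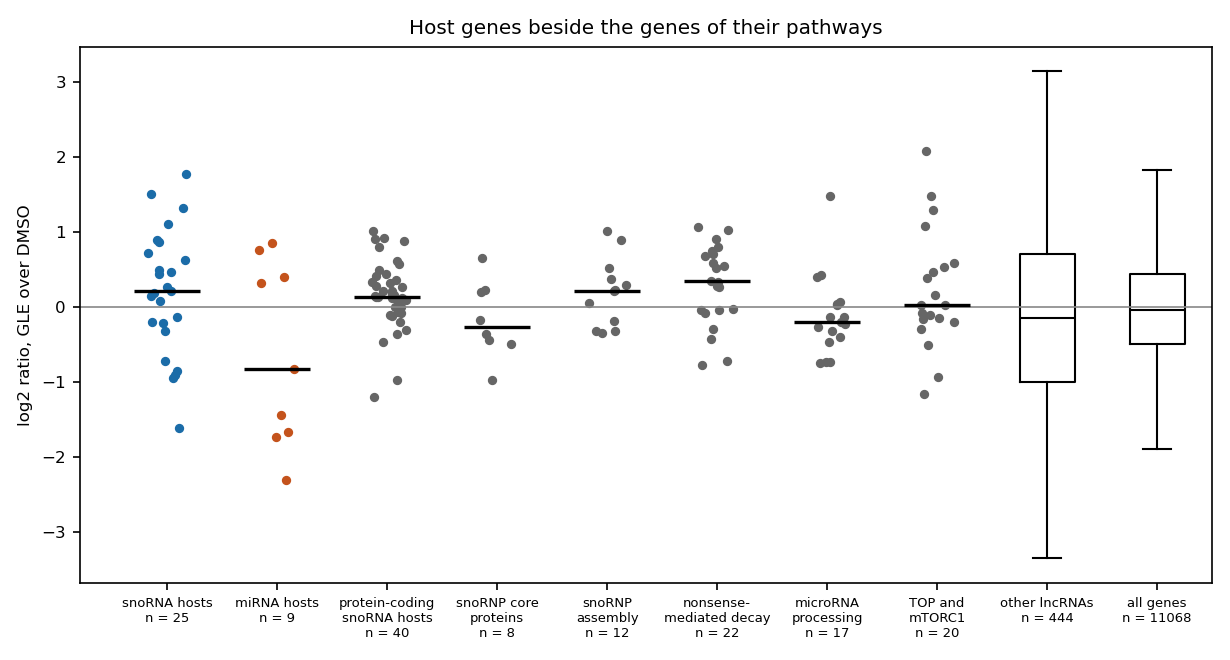
Log2 ratio GLE over DMSO of the measured members of each list (points, with a bar at the median) beside boxes for the 444 other long non-coding RNAs and all 11068 measured genes (median, quartiles, and whiskers to the last value within 1.5 times the quartile range). The snoRNA hosts spread from -1.61 to 1.77 around a median of 0.22, and the miRNA hosts from -2.30 to 0.85 around -0.82.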

How the data were processed

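The values the authors deposited are whole-number counts of reads for each gene symbol, with no normalization, and each file covers 1 library. A Lexogen QuantSeq kit, which reads 3′ ends of polyadenylated RNA, was used per the labels' protocols, and per the submitters' processing notes the tools were fastp, STAR and HTSeq with the build GRCh38. No version, annotation or strand setting is stated there (not given in the sources used here).

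From the deposited counts, library sizes were scaled by edgeR 4.0.16 trimmed mean of M-values (TMM) under R 4.3.3, with factors of 0.972 for GLE and 1.03 for DMSO. Ratios carry exact Clopper-Pearson 95% intervals (SciPy 1.17.1, Python 3.11.15), and 0.5 was added to counts before taking log2 ratios. Genes with at least 30 counts over both libraries were kept. The computation was tested on simulated data. DESeq2 1.42.0 gave alternative size factors. RefSeq placed 107 of 108 members, and GENCODE 29 gave transcripts for 104. The strand of snoRNAs inside hosts was not checked.

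Members and lists were chosen with earlier results of these data known. Members with at least 200 counts, or at least 2-fold apart, are described in full, with up to 4 genes per other list by the interval bound nearest to 1.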

Additional observations from a re-analysis of the deposited data

How the results depend on the processing

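No paired analysis was possible because each group holds 1 library. Scaling by total counts, DESeq2 size factors, upper-quartile factors or a median of 0 over well-counted genes shifted every log2 ratio by -0.08 to 0.03, and none of the 34 measured members' log2 ratios left its counting interval under these scalings or with 2 added to each count. Scaling by total counts moved the summed snoRNA host ratio to 1.31. With a minimum of 10 counts, 9 members were at least 2-fold lower. With a minimum of 100, 2 were, 4 intervals lay below 1, and for miRNA hosts the median log2 ratio was -0.34 and the summed ratio 1.27. With no minimum, 14 members were at least 2-fold higher and 14 lower as genes of very few counts entered. Shares over all genes at these other minimums are not given, so the counts cannot be set beside a background. With letters and digits only between MIR and HG, which leaves out MIR4435-2HG, the summed miRNA host ratio was 0.629. Without the 14 measured members that overlap another gene, 1 member was at least 2-fold higher, 7 intervals lay above 1, the median of miRNA hosts was -1.55, and the summed ratios were 1.51 for snoRNA hosts and 0.595 for miRNA hosts. The other 72 recomputed summaries were called unchanged. For counts this meant within 1.5 times the main count, and for summed ratios within the main counting interval. For medians it meant a shift under 0.371 log2, the median half-width of the members' own intervals, which is not the error of a median. The miRNA host median of -1.13 with letters and digits only is among those called unchanged. So are the 5 members at least 2-fold lower and the 7 intervals below 1 that were left without the overlapping members. Of the 2-fold counts per pathway list recomputed under other scalings, 47 of 56 stayed within 1.5 times the main count. The calls that changed are given with their genes, apart from MLST8, an mTORC1 subunit, at 2.04-fold lower under total counts. Of 77 miRNA hosts, 68 had under 30 counts and 45 of them had none.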
